A study of Xenopus tropicalis with 12 samples.

Results

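The Mix and Bix genes encode paired-type homeodomain transcription factors (TFs) of the vertebrate mesendoderm, the cells that give rise to mesoderm and endoderm. The 8 genes described here are mixer, mix1, bix1.1, bix1.2, bix1.3, bix1.5, bix1.6 and sebox. They were chosen by name from the TF catalog and matched by identifier to the v9 gene models, as 8 of 26550 gene models, and all 8 passed the filter on low counts. In Xenopus, mix1 was found as an early response gene to activin, a ligand whose signal resembles that of Nodal. Maternal Vegt, a T-box factor held in the vegetal cytoplasm, and Nodal ligands acting through Smad2 and Foxh1 are known to switch on genes of this family soon after zygotic transcription begins. Mixer is known in X. laevis as an activator of sox17 genes and as a partner of Smad2, while the bix (Brachyury-inducible homeobox) genes take their name from the response to the T-box factor Brachyury.

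X. tropicalis embryos of Nieuwkoop and Faber stage 10 to 10.25, untreated and of no stated genotype, were dissected into animal cap, dorsal, lateral and ventral marginal zones, and vegetal mass. These 5 regions are enriched for future ectoderm (cap), mesoderm (zones) and endoderm (mass). Each library was polyA+ RNA of about 30 pooled explants, with more for the lateral zones because an embryo yields a pair of them, and sibling whole embryos made a sixth group. The 12 libraries came from 2 clutches, so each of the 6 groups holds 2 libraries, and replicate number here means clutch. Values are given for clutch 1 and then clutch 2, and an SD over n = 2 is the spread between clutches. An SD over n = 6 marginal libraries mixes differences between zones with those between clutches. Expression is in TPM, the number of transcripts of a gene relative to all transcripts of a library, which corrects the reads assigned to a gene for transcript length.

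Total expected counts ranged from 14634582 to 29166548 per library. The region markers sox17a, foxa1 and gata6 (vegetal mass), t (marginal zone), gsc (dorsal), ventx1.1 and ventx1.2 (ventral) and foxi1, grhl3, tfap2a and dlx3 (animal cap) each had the highest mean in a region that matched its label. All 7 vegetal and marginal markers were above 0 in both animal cap libraries, with a summed level of 322 and 282 TPM, against 1320 to 2999 TPM in the other regions. Most of the sum in the caps came from the ventx genes, for which the paper also describes reduced expression in the animal ectoderm. Each of the 7 was higher in the cap of clutch 1 than in that of clutch 2. In bulk explants, fewer cells that express a gene and less RNA per cell cannot be told apart.

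The family forms a cluster, apart from sebox. In RefSeq annotation of the assembly UCB_Xtro_10.0, used for names and neighbours only because the counts rest on another assembly, mixer, mix1 and bix1.2 follow one another, and bix1.3 (there LOC101733442) and bix1.1 lie further along the same row of genes. The gene sebox lies elsewhere, between vtn and tmem199. In all, 6 of the 8 genes were matched, and bix1.5 and bix1.6 were not. The bix1 copies resemble each other, and RSEM, which the authors used, divides reads that fit several copies by an estimate, so the level of a single bix1 gene is less certain than that of all 5 together. A further copy, bix1.4, is no member and was listed at 0 TPM in 10 libraries and at 0.47 and 1.17 TPM in the animal caps, too low to be tested.

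The most abundant member was mixer (Xetrov90012972). It reached 4494 and 4345 TPM in the vegetal mass, against 1747 and 1128 in the dorsal, 1281 and 738 in the lateral and 1678 and 1049 TPM in the ventral marginal zone. Animal caps held 47.8 and 13.0 TPM, and whole embryos 1923 and 1389 TPM. The vegetal libraries therefore stood above each of the 6 marginal libraries and the caps below them, while the 3 marginal zones overlapped.

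The founding member, mix1 (Xetrov90012973), had a flatter gradient from marginal zone to vegetal mass. Its TPM was 863 and 1167 vegetally, 497 and 346 in the dorsal, 444 and 404 in the lateral and 548 and 543 in the ventral marginal zone. The caps held 22.8 and 6.20 TPM and whole embryos 496 and 433 TPM. Both ventral values lay above both lateral ones, whereas lateral and dorsal values overlapped.

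Among the bix1 genes, bix1.1 (Xetrov90012978) was the most abundant, at 543 and 828 TPM vegetally and between 91.5 and 254 TPM (median 186) in the 6 marginal libraries. The caps held 6.79 and 2.51 TPM. Next came bix1.2 (Xetrov90012974), with 287 and 363 TPM vegetally, 32.8 to 97.3 TPM (median 77.0) in the marginal libraries and 4.88 and 0.73 TPM in the caps. The lowest was bix1.3 (Xetrov90012976), at 49.7 and 42.5 TPM vegetally, 3.86 to 13.9 TPM (median 11.2) in the marginal libraries and 0 in both caps. All 3 genes were lowest of the marginal libraries in the dorsal zone of clutch 2.

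The remaining bix1 copies were of similar level to each other. In the vegetal mass, bix1.5 (Xetrov90012981) held 139 and 265 TPM and bix1.6 (Xetrov90012982) 185 and 215 TPM. The marginal libraries held 26.2 to 65.5 TPM of bix1.5 (median 50.7) and 38.0 to 120.0 TPM of bix1.6 (median 74.5). In the cap of clutch 1 they were at 1.58 and 1.04 TPM, and in that of clutch 2 both were at 0. The ratio of bix1.5 to bix1.6 was below 1 in the marginal libraries (0.546 to 0.882) and was 0.752 and 1.23 in the vegetal mass, so that their order was not the same in both vegetal libraries.

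The eighth gene, sebox (Xetrov90004300), is known in zebrafish as mezzo, a Nodal-responsive factor of mesoderm and endoderm. It differed from the others in being nearly even across vegetal mass and marginal zones. It held 147 and 209 TPM vegetally, 164 and 164 in the dorsal, 143 and 144 in the lateral and 154 and 137 TPM in the ventral marginal zone. Animal caps held 5.31 and 1.25 TPM and whole embryos 102 and 121 TPM. The vegetal library of clutch 1 lay within the marginal range and that of clutch 2 above it, and the whole embryo value was below each of those 4 regions in both clutches.

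**Figure D1:**
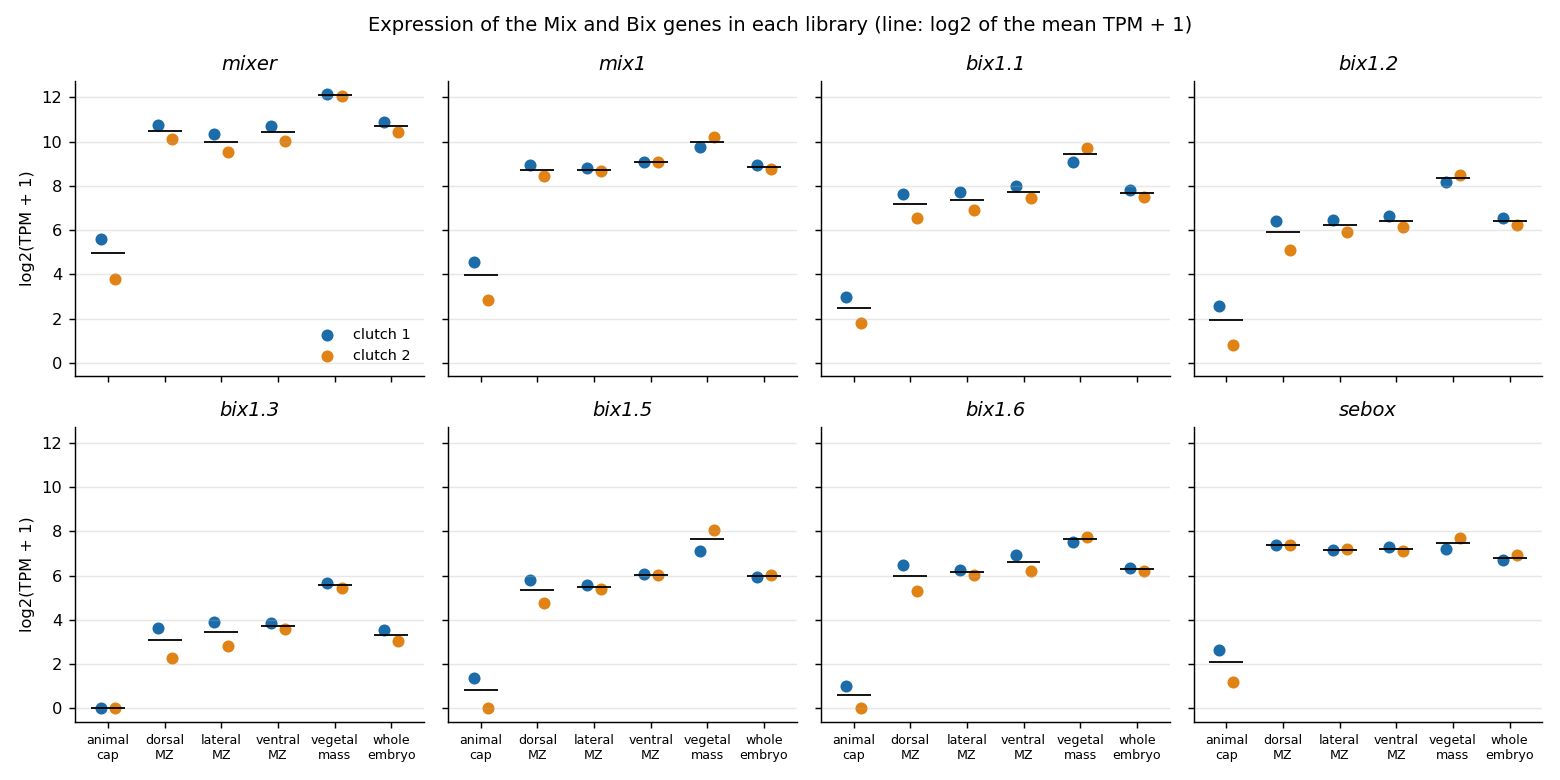
Expression of the 8 Mix and Bix genes in each of the 12 libraries, as log2(TPM + 1), by region (MZ, marginal zone) and clutch, with a black line at log2 of the mean TPM + 1. In 7 panels both vegetal points lie above all marginal points, whereas sebox is level across vegetal mass and marginal zones, and all 8 genes are lowest in the animal cap.

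The regional order of the mean levels put the vegetal mass first for all 8 genes and the animal cap last. In 7 of 8 genes both vegetal libraries exceeded each marginal library, the exception being sebox, and in 8 of 8 both caps were below each marginal library. Between these ends the marginal zones mostly overlapped. The ventral zone had the highest marginal mean for mix1 and the 5 bix1 genes, without overlap with the next zone for mix1 and bix1.5, and the dorsal zone for mixer, with overlap, and for sebox, without it.

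Summed over the 8 genes, Mix and Bix transcripts made up 6707 and 7435 TPM vegetally (mean 7071 ± 514 TPM, SD, n = 2), or 0.671% and 0.744% of all transcripts. The marginal sum was 1576 to 2929 TPM (mean 2267 ± 542 TPM, SD, n = 6). The caps held 90.2 and 23.7 TPM and whole embryos 2994 and 2340 TPM, so whole embryos lay between marginal zone and vegetal mass in clutch 1 and in clutch 2. Within clutches the vegetal sum was 2.49 and 4.04 times the mean of the marginal zones, and the cap held 3.35% and 1.29% of that mean.

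The composition of the sum also differed by region. The share of mixer was 67.0% and 58.5% in the vegetal libraries and 46.8% to 61.6% in the marginal ones, which overlap. The 5 bix1 genes together took 17.9% to 23.0% vegetally and 10.5% to 18.9% marginally, again with overlap. Shares of mix1 (12.9% to 15.7% vegetally, 17.5% to 25.6% marginally) and of sebox (2.20% to 2.82% vegetally, 5.24% to 9.16% marginally) did not overlap, and both were smaller in the vegetal mass. These shares are a description of levels and were not tested.

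**Figure D2:**
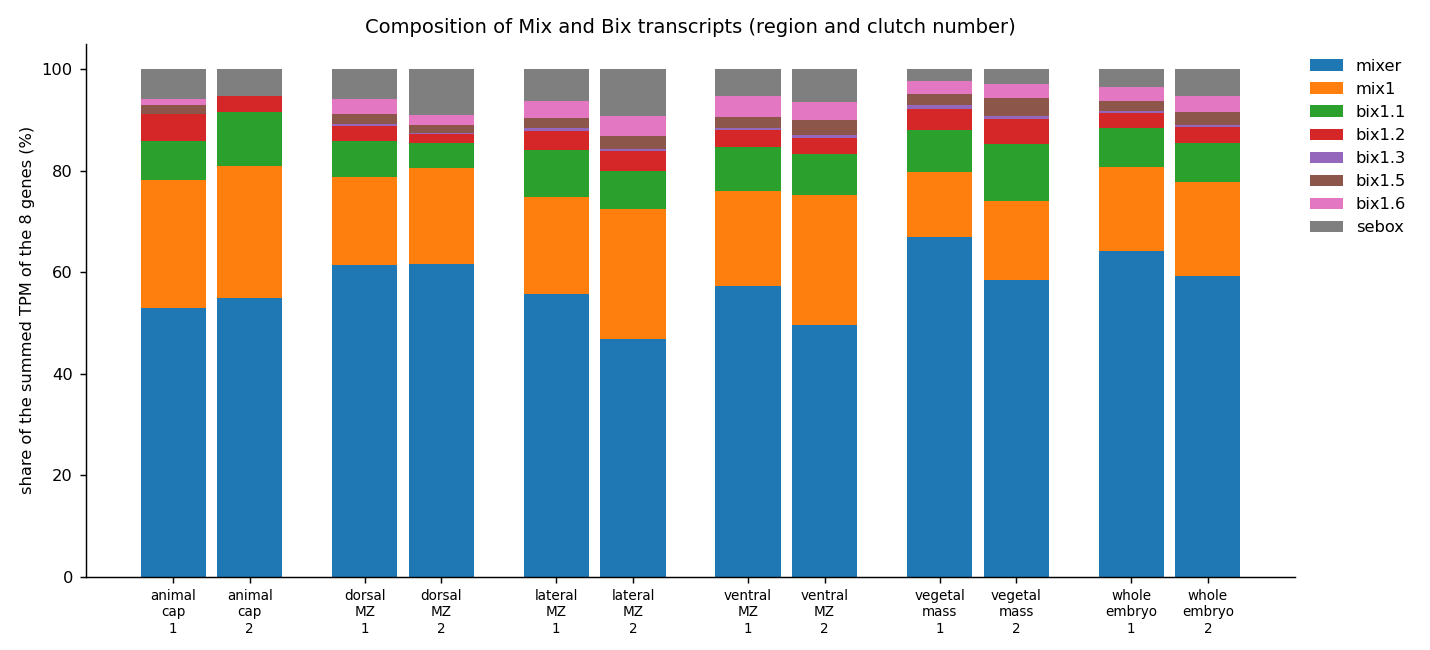
Share of each gene in the summed TPM of the 8 Mix and Bix genes (%), 1 bar per library, labelled by region (MZ, marginal zone) and clutch. The grey share of sebox is 2.20% to 2.82% in the vegetal mass and 5.24% to 9.16% in the marginal zones.

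Animal caps were compared with the vegetal mass to ask how far expression falls along the animal-vegetal axis. All 8 genes were higher vegetally in the edgeR quasi-likelihood test, where p adjusted by Benjamini-Hochberg over all 15727 genes tested ran from 0.00144 to 0.00700. Of all genes, 4.40% were called higher in that comparison. In a fit of the 4 libraries of these regions alone 7 of 8 were called, bix1.5 having an adjusted p of 0.0588 in edgeR. The log2 fold change ranged from 5.67 ± 0.60 (SE) for sebox and 6.07 ± 0.58 for mix1 to 8.28 ± 0.94 for bix1.6, with a median of 7.11 over the 7 genes other than bix1.3. The folds of bix1.5 and bix1.6 rest on few counts. Their caps held 25.19 and 14.65 expected counts in clutch 1, and both were at 0 in clutch 2. Counts were also low in the cap of clutch 2 for bix1.2, at 4.6, and for sebox, at 10.0. With its animal caps at 0, bix1.3 has a lower bound alone. Set against 3 counts per library, it was at least 196-fold higher vegetally in clutch 1 and at least 98.4-fold in clutch 2. The median with bix1.3 at that bound was 7.11, against 0.03 over all genes. The bound covers counting error only, and not how RSEM divided reads among the bix1 copies. In the caps bix1.4 was given 5.72 and 8.62 expected counts, and whether these belong to another copy was not tested.

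The marginal zones were set against the caps in the same way. Again 8 of 8 genes were higher in the marginal zones in edgeR's test, with adjusted p from 0.00723 to 0.0404, while 1.04% of all genes were called higher. Log2 fold changes ran from 4.60 ± 0.68 (SE) for bix1.2 to 6.95 ± 0.87 for bix1.6, with mixer at 5.38 ± 0.55 and sebox at 5.52 ± 0.57. The value of bix1.6 again rests on few counts in the caps, and that of bix1.2 on 50.99 in clutch 1 and 4.6 in clutch 2. The marginal level of bix1.3 was at least 54.2-fold that of the cap in clutch 1 and at least 17.9-fold in clutch 2, again for counting error only. The median of the 8 with that bound was 5.28, against 0.01 over all genes. Without the animal cap of clutch 2, 4 of 8 genes were called, and without any other single library 6 or 7. The losses included bix1.2 and bix1.5, whose adjusted p rose as far as 0.0796 and 0.0954 in edgeR.

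Within the caps, 7 members were lower in clutch 2 and bix1.3 was at 0 in both. The cap of clutch 2 held 136 expected counts of mixer, 71.2 of mix1 and 10.0 of sebox, against 833, 437 and 71.0 in that of clutch 1. The vegetal and marginal markers were also lower in the cap of clutch 2, but to unlike degrees. In the caps t was at 36.1 and 15.8 TPM, sox17a at 9.52 and 2.61, gsc at 2.03 and 0.87 and foxa1 at 0.70 and 0.27 TPM. Nearly level were gata6 at 7.95 and 7.17, ventx1.1 at 175 and 173 and ventx1.2 at 89.9 and 81.9 TPM. The part of such markers in the cap values of the Mix and Bix genes was not tested.

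The vegetal mass, enriched for future endoderm, was next compared with the mean of the marginal zones, enriched for future mesoderm. In edgeR's test 4 of 8 genes were higher vegetally, bix1.1 by 1.93 ± 0.35 on the log2 scale (SE; adjusted p = 0.0220), bix1.3 by 2.16 ± 0.36 (adjusted p = 0.0244), mixer by 1.73 ± 0.36 (adjusted p = 0.0353) and bix1.2 by 2.12 ± 0.45 (adjusted p = 0.0380). Of all genes 3.76% were called higher. The genes that did not pass were bix1.5 (1.98 ± 0.59, adjusted p = 0.108), mix1 (1.05 ± 0.36, adjusted p = 0.156), bix1.6 (1.33 ± 0.50, adjusted p = 0.193) and sebox (0.14 ± 0.39, adjusted p = 0.932). The median over the 8 genes was 1.83, against 0.02 over all genes.

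That count differed between fits. DESeq2, without a block, called 6 of 8 genes higher vegetally, bix1.5 and bix1.6 in addition, where it called 6.92% of all genes higher. With clutch as a block, 7 of 8 genes were higher vegetally in edgeR, now with mix1 (adjusted p = 0.0435), bix1.6 (adjusted p = 0.00752) and bix1.5 (adjusted p = 0.00596), while sebox stayed at 0.12 (adjusted p = 0.751). The block also raised the share of all genes called higher, to 20.2%. In the comparisons with the animal cap it left 8 of 8 called, where 21.2% of all genes were called higher vegetally and 3.28% marginally. Without the block, some of the 4 calls were lost whenever 1 vegetal or marginal library was left out. Those fits had no clutch term, so a region left with 1 library was compared with both clutches of the others. The part of that imbalance in the lost calls was not tested. No library was left out of the fit with the block. Leaving out the dorsal zone of clutch 1 or the lateral zone of clutch 1 gave 2 calls, the dorsal zone of clutch 2 or the vegetal mass of clutch 1 gave 1, and the lateral zone of clutch 2, either ventral zone or the vegetal mass of clutch 2 gave 0.

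**Figure D3:**
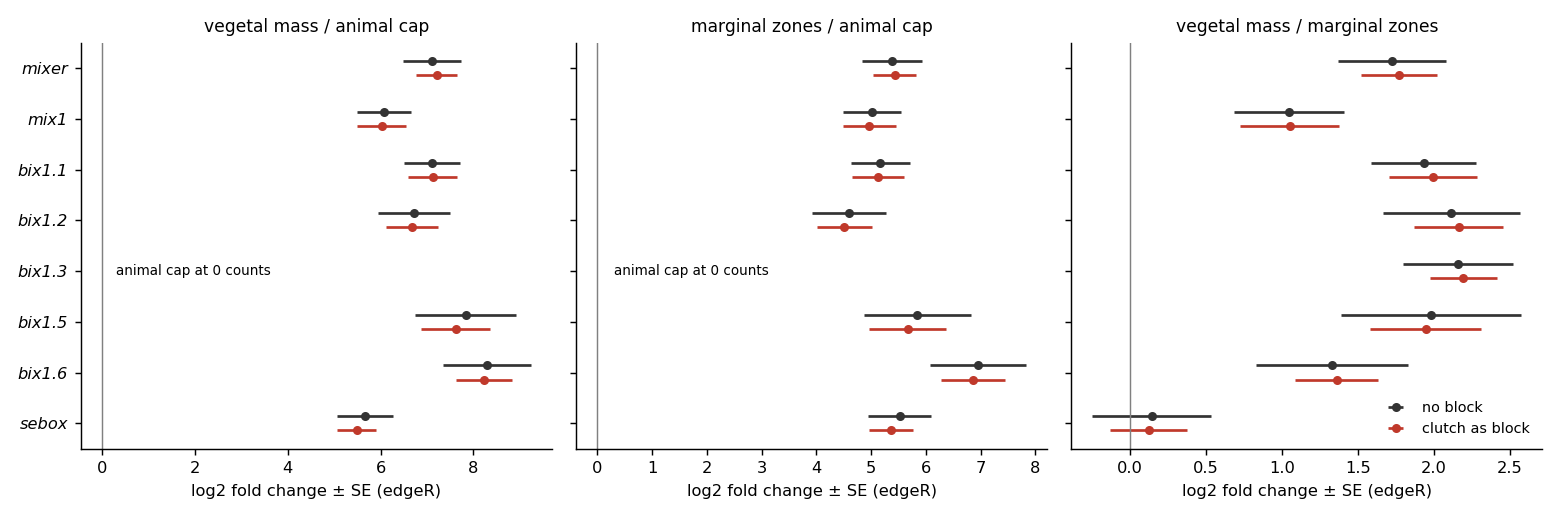
Log2 fold change ± SE of each gene in edgeR for vegetal mass over animal cap, marginal zones over animal cap, and vegetal mass over marginal zones, without (black) and with (red) clutch as a block. No fitted fold is drawn for bix1.3 against the caps, where it had 0 counts, and sebox is the gene near 0 in the right panel, at 0.14 without the block.

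The gap between sebox and the other 7 genes was also measured directly, as a description, since sebox was set apart with its level in this contrast known. The log2 ratio of the summed TPM of the 7 to that of sebox was 5.48 and 5.11 in the vegetal mass (mean 5.29 ± 0.26, SD, n = 2) and 3.31 to 4.18 in the marginal libraries (mean 3.77 ± 0.36, SD, n = 6). The groups did not overlap. The difference was 1.52 on the log2 scale, and within clutches it was 1.43 and 1.605. The sum is mostly mixer, and without mixer the difference was 1.34.

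On the TPM scale sebox had the lowest fold of the 8 genes in each clutch. The vegetal level was 2.87 and 4.47 times the marginal mean for mixer, 1.74 and 2.71 times for mix1 and 0.961 and 1.41 times for sebox. For the bix1 genes it lay between 1.95 (bix1.6) and 3.86 times (bix1.3) in clutch 1 and between 3.71 (bix1.6) and 6.74 times (bix1.2) in clutch 2. Every member had the larger fold in clutch 2.

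Dorsal and ventral marginal zones were compared to ask whether the family follows the dorsal-ventral axis. No member passed in edgeR's test, at an unadjusted p under 0.05 for 0 of 8, while 0.0445% of all genes were called in either direction. DESeq2 also called 0 of 8, and 1.03% of all genes. Log2 fold changes (dorsal over ventral) ran from -0.70 to 0.26, with a median of -0.48. With clutch as a block 0 of 8 were called and the lowest unadjusted p was 0.0577, where 1.46% of all genes were called. The design gives 2 libraries a zone, and these values do not show that the zones are alike.

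The direction nevertheless repeated in both clutches. The dorsal zone held 1.04 and 1.08 times the ventral TPM of mixer and 1.07 and 1.2 times that of sebox. For mix1 and the 5 bix1 genes the dorsal value was the lower one in each clutch, with ratios from 0.736 to 0.907 in clutch 1 and from 0.347 to 0.637 in clutch 2. The summed dorsal level was 0.972 and 0.864 times the ventral one. Lateral against dorsal and lateral against ventral zones gave 0 of 8 calls each in edgeR, with 0 of 8 at an unadjusted p under 0.05, and 0% of all genes passed in either comparison. DESeq2 likewise called 0 of 8 in each, and 0.471% of all genes between dorsal and lateral and 0.0890% between lateral and ventral zones.

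The 2 clutches differed widely, with 65.9% of all genes called in either direction between them in edgeR across the 12 libraries. That fit takes the 6 groups of a clutch as replicates. Its p-values measure how steady a difference was over groups, not the spread between clutches. None of the 8 Mix and Bix genes was among those called, with 1 of 8 at an unadjusted p under 0.05. DESeq2 called 0 of 8 where it called 63.2% of all genes. In TPM, 23 of 24 marginal values were lower in clutch 2, the exception being sebox in the lateral zone. That count depends on the scale, since in TMM-scaled CPM (counts relative to library size) 16 of 24 were lower and sebox was higher in all 3 zones. In the vegetal mass 6 genes were higher in clutch 2 in TPM, and mixer and bix1.3 were lower, and on the count scale 7 were higher, bix1.3 alone being lower.

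The clutch difference in the vegetal mass was set against that in the marginal zones in a fit that takes the 3 zones of a clutch as replicates. The log2 ratio of clutch 2 to clutch 1 was the higher in the vegetal mass for 8 of 8 genes, by 0.50 for the least to 1.35 for bix1.1. This difference carries a sign, so the change between clutches need not be the larger in size in the vegetal mass. In edgeR 0 of 8 passed and 1 of 8 had an unadjusted p under 0.05, with 0.0445% of all genes called, and DESeq2 called 1 of 8, bix1.1, and 2.38% of all genes. The spread in this fit is that between zones of sibling embryos, so these counts do not measure variation between clutches. With a single vegetal library per clutch, a difference between clutches and one between libraries cannot be told apart.

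**Figure D4:**
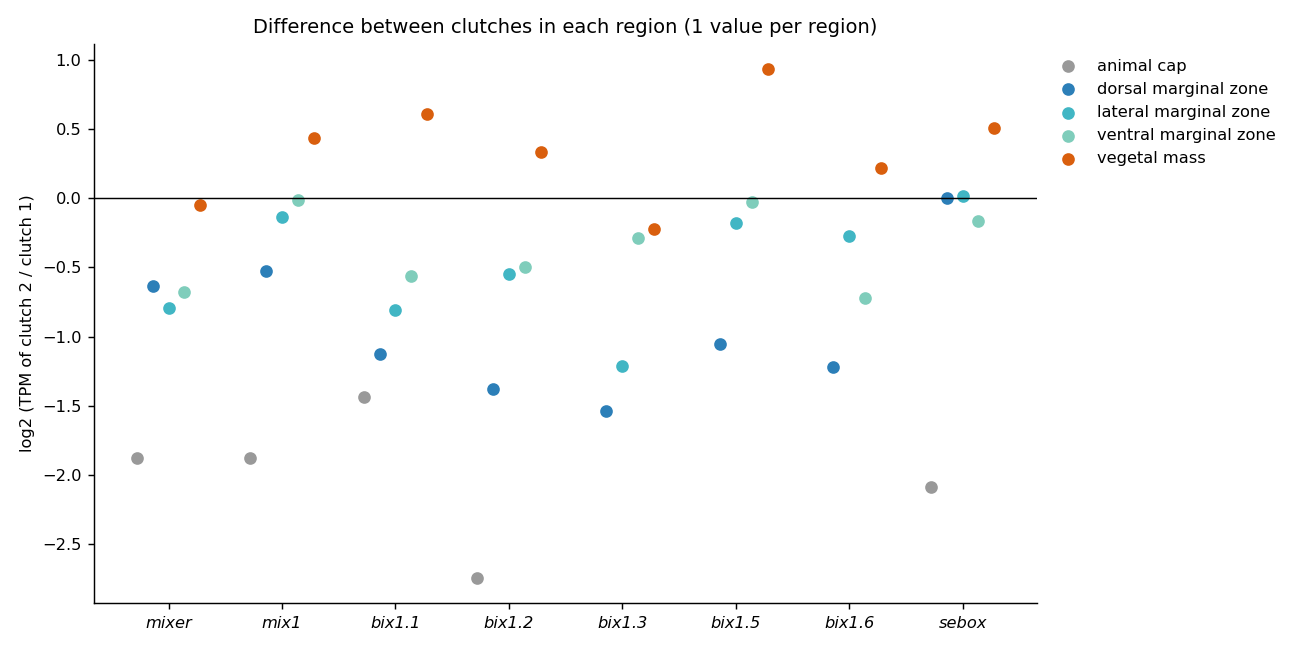
Log2 ratio of TPM in clutch 2 to clutch 1 for each gene, 1 point per region, with ratios left out where a library was at 0. In every gene the orange vegetal point is the highest, and all marginal points but that of sebox in the lateral zone lie below 0.

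Other factors of the same network gave a frame for these values. Of the Mix-like relatives, a list of bix1.4, mxtx1 and the siamois genes sia1 and sia2, 3 could be tested. The organizer gene sia1 was the one called. It was higher vegetally than in the caps (log2 6.58, edgeR adjusted p = 0.0178) and than the mean of the zones on the log scale (log2 3.19, adjusted p = 0.0362). None was called between marginal zones and caps. The zones were unlike for sia1, with means of 33.2 TPM dorsally, 2.775 laterally and 1.33 ventrally against 49.45 TPM vegetally. Its paralog sia2 (log2 4.05, adjusted p = 0.0602) and mxtx1 (log2 2.28, adjusted p = 0.363) did not pass between vegetal mass and marginal zones. With clutch as a block all 3 were higher vegetally in both comparisons and 1 marginally. The values of mxtx1 differed strongly by clutch, with 411 and 106 TPM vegetally and 6.83 to 115 TPM in the marginal libraries.

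Among 8 genes of the maternal and Nodal effectors, vegt and the T-box gene eomes were called higher than in the caps in both the vegetal mass (log2 4.37 and 5.11, edgeR adjusted p = 0.00382 and 0.00201) and the marginal zones (log2 3.88 and 5.14, adjusted p = 0.0118 and 0.00696). Neither passed between vegetal mass and marginal zones, with log2 fold changes of 0.49 for vegt (adjusted p = 0.545) and -0.02 for eomes (adjusted p = 0.993). Here 0 were higher vegetally and 1 was lower, foxh1.2, a Foxh1 relative (log2 -3.62, adjusted p = 0.0134), which with smad4.1 was also lower than in the caps (log2 -4.27 and -1.44, adjusted p = 0.00764 and 0.0400). The signal transducers smad2, smad3, smad4.2 and foxh1 did not pass in any of the 3 comparisons, with log2 fold changes from -0.42 to 0.88, nor did smad4.1 between vegetal mass and marginal zones (log2 -1.18, adjusted p = 0.0542). With the block, 2 of 8 were higher and 2 lower between vegetal mass and marginal zones. Those higher were smad3 (log2 0.88, edgeR adjusted p = 0.000189) and foxh1 (log2 0.79, adjusted p = 0.0135), and those lower foxh1.2 and smad4.1. In that fit smad3 was also higher vegetally than in the caps (log2 0.86, adjusted p = 0.000951).

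The 9 endoderm factors, sox17a, sox17b.1, sox17b.2, gata4, gata5, gata6, foxa1, foxa2 and hhex, were all called higher in the comparison of vegetal mass with marginal zones, from 2.27 for gata6 (edgeR adjusted p = 0.000563) to 3.27 for sox17b.2 (adjusted p = 0.00437), with a median log2 of 2.98. That median is larger than the 1.83 of the Mix and Bix genes, a difference that was not tested. Against the caps all 9 were higher vegetally, from foxa2 (log2 4.31) to gata4 (log2 7.94), and 7 were higher marginally. The other two, foxa2 (log2 1.75) and sox17b.1 (log2 3.39), had an adjusted p of 0.0888, and with the block all 9 were called. Among the 9, hhex was uneven over the zones, with means of 169 TPM dorsally, 24.4 laterally and 11.8 ventrally. Its vegetal mean was 316 TPM.

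Of the 8 mesoderm and organizer factors, the T-box gene t (brachyury), a known activator of bix genes, went the other way between vegetal mass and marginal zones, at -2.17 on the log2 scale (edgeR adjusted p = 0.00860). The head organizer genes gsc (log2 2.28, adjusted p = 0.0122) and otx2 (log2 2.44, adjusted p = 0.00817) were higher vegetally than the mean of the zones on the log scale, and lhx1, foxa4, mespa, mespb and msgn1 did not pass, with log2 fold changes from 0.04 to 0.84. Both were highest in the dorsal zone, with mean levels of 389.9 TPM for gsc and 432 TPM for otx2 against 211 and 391 TPM vegetally and 5.02 and 10.2 TPM ventrally. Against the caps all 8 were higher vegetally, from t (log2 2.68) to msgn1 (log2 7.51), and 7 marginally, from gsc (log2 4.79) to msgn1 (log2 7.05), otx2 being at 0.70 (adjusted p = 1). In these comparisons sebox lay beside mespa and mespb, genes of early mesoderm, and eomes, with log2 fold changes near 0 between vegetal mass and marginal zones and between 5.14 and 5.67 between marginal zones and caps.

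**Figure D5:**
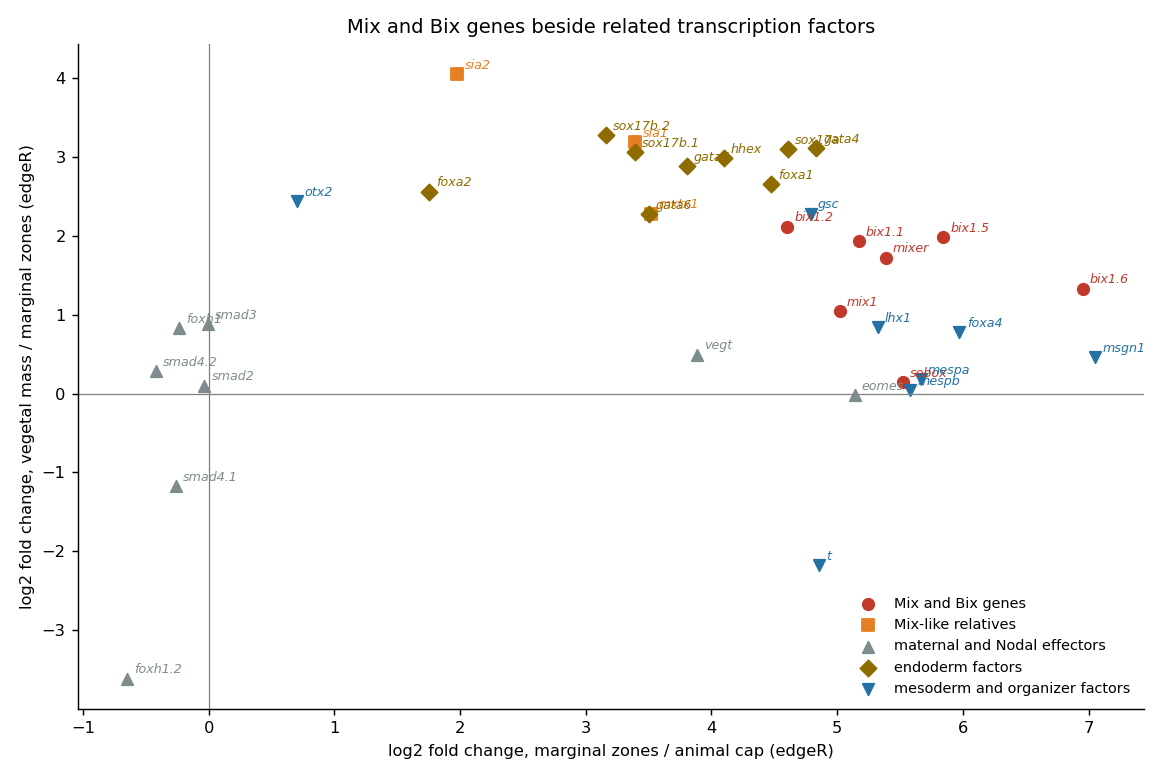
Log2 fold change of marginal zones over animal cap (x axis) and of vegetal mass over marginal zones (y axis) in edgeR for the Mix and Bix genes and 4 lists of related factors, 1 point per gene. All 7 red points drawn lie below the endoderm factors, which run from 2.27 to 3.27 on the y axis, while sebox sits at 0.14 near mespa, mespb and eomes. Marginal values are means over the zones, which were uneven for mespa and mespb. The gene bix1.3 is left out because the caps had 0 counts.

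The levels of the members also moved together across libraries. Over the 10 region libraries, Pearson's r of log2(TPM + 1) between pairs of members was 0.922 to 0.996 for the 21 pairs without sebox and 0.850 to 0.983 for the 7 pairs with it. Likeness of sebox to the others was lower once the caps were left out. In the 8 libraries without caps r was 0.871 to 0.997 for pairs without sebox and 0.352 to 0.579 for pairs with it. Without the caps, r carries the difference between vegetal mass and marginal zones already given, so it is no separate result. Libraries of a clutch come from siblings, and the bix1 genes can share reads.

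Of the 834 other TFs that averaged 1 TPM or more in some region, the 6 whose profile over the 10 libraries was most like the family sum (r of log2(TPM + 1)) were osr2 (0.994), vegt (0.989), stox1 (0.967), osr1 (Xetrov90028455, 0.966), eomes (0.965) and a second gene model named osr1 (Xetrov90015188, 0.964). The zinc-finger gene osr2 averaged 266 TPM vegetally, 72.6, 73.5 and 91.1 TPM in the dorsal, lateral and ventral zones and 1.76 TPM in the caps. The T-box gene vegt held 2542 and 2880 TPM vegetally and 198 and 53.7 TPM in the caps, so that its cap level was also the lower in clutch 2. These values do not tell maternal from zygotic transcripts. The profile of eomes differed in that its vegetal level, 645 and 440 TPM, lay within its marginal range of 360 to 674 TPM. This likeness is a description over 10 libraries and gives no order among genes whose r differ in the third digit. The caps, where each of these genes was lowest, enter into r, and no r without them was taken for this ranking. For stox1 the caps averaged 14.8 TPM and the other regions 44.9 to 55.2 TPM.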

How the data were processed

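PolyA+ RNA of 12 libraries (5 regions and whole embryos, 2 clutches) was sequenced from a non-stranded kit, so overlapping and antisense genes are uncertain. The authors assigned reads with RSEM 1.2.12 to v9 gene models and deposited, for each model and library, an expected count, which is an estimate not normalized between libraries, and a TPM value, which sums to the same total in each library. TPM was used as deposited. Expected counts were rounded to whole numbers, filtered by edgeR's filter on low counts, scaled by TMM and tested with edgeR 4.0.16 (quasi-likelihood, R 4.3.3) in a single fit of the 10 region libraries, with p-values adjusted by Benjamini-Hochberg over all genes and a threshold of 0.05. The clutch comparison used all 12 libraries with region as a term. The SE given with an edgeR fold is the size of the log2 fold change divided by the square root of the quasi-likelihood F. The paper's own tool for differential expression was not used.

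Clutch pairs the samples, because the study's methods state that the regimen was repeated on different clutches; deviations from group means of same-numbered libraries correlated at 0.657 to 0.823 over 15 pairs of groups (median 0.754). In the region comparisons without a block, p-values measure the spread between 2 clutches of pooled explants. With clutch as a block they measure the spread left once a common clutch difference is taken out. In the clutch comparison they measure how steady a difference was over groups. For the clutch difference between regions the spread is that between zones. Alternatives were clutch as a block, DESeq2 1.42.0, library size without TMM, no filter, the compared libraries alone, limma 3.58.1 on log2(TPM + 1), the same with a pseudocount of 0.1, and each library left out. Limits from 3 counts cover counting error only. The edgeR, DESeq2 and limma fits were run on simulated counts with known changes. Scored were vegetal mass against animal cap and, in edgeR, the clutch difference between regions. Reads shared among the bix1 copies and the region comparisons with the mean of the marginal zones were not covered. Tables were made in Python 3.11.15 with pandas 2.3.3 and numpy 2.4.6, and plots used matplotlib 3.10.9.

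The members, the lists of related genes and the tests were chosen with earlier results of these data known. Named genes are the 8 members, of each related list those called with the largest and smallest change and those not called, and the 6 TFs most like the family sum among those averaging 1 TPM or more in some region. RefSeq names and neighbours came from assembly UCB_Xtro_10.0. A gene of the list of endoderm factors is not reported here. No sequences were used.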

Additional observations from a re-analysis of the deposited data

How the results depend on the processing

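With clutch as a replicate block, 7 genes in place of 4 were called between vegetal mass and marginal zones, and the block changed no other count of called members; limma on log2(TPM + 0.1) called 1 and DESeq2 6. The compared libraries alone gave 7 calls between vegetal mass and caps, 6 between marginal zones and caps and 6 between vegetal mass and marginal zones. Leaving out 1 library gave 0 to 6 calls there, 4 to 7 between marginal zones and caps (8 with all), 0 to 2 between clutches and 0 to 1 for the clutch difference between vegetal mass and marginal zones. Between clutches, library size without TMM called 2 genes, limma on log2(TPM + 0.1) called 4 and limma on log2(TPM + 1) called 5, where edgeR called 0; the median over all genes moved from -0.03 to -0.16, -0.30 and -0.22 in these fits, and calls higher in clutch 2 over all genes from 5053 of 10439 to 4078 of 10421, 3139 of 10735 and 3178 of 10818. DESeq2 called 1 gene for the clutch difference between regions. Without TMM the median over all genes was 0.18 between vegetal mass and caps and 0.15 between vegetal mass and marginal zones.

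The direction turned for sebox between vegetal mass and marginal zones without the vegetal mass of clutch 2 (log2 -0.27; -0.27 to 0.46 over the single libraries left out), and for mixer between dorsal and ventral zones without the dorsal zone of clutch 1 (-0.04) or the ventral zone of clutch 2 (-0.069; -0.069 to 0.39 over the single libraries left out). The dorsal over ventral log2 ratio of the summed genes was -0.13 and, without mixer, -0.40. The region fits with 1 library left out had no clutch term, so a region left with 1 library was compared with both clutches of the others. With all libraries, mixer in TMM-scaled CPM was at 1120 and 871 dorsally and at 1053 and 759 ventrally, higher dorsally in each clutch. The cause of the turns in direction was not tested. The clutch difference between regions could not be fitted without a vegetal library. Of 613 values of single genes under alternatives, 545 kept direction and side of the threshold, a count that leaves out the comparison between clutches. It includes 134 values between dorsal and ventral zones and 101 of the clutch difference between regions, where edgeR had called no member. Between vegetal mass and marginal zones 93 kept both, while 30 were weaker, 12 stronger and 1 reversed. With 2 libraries a group, small differences between marginal zones were not detectable.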
